A study of Mus musculus with 9 samples.

Results

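Glutathione S-transferases attach the tripeptide glutathione to reactive, fat-soluble molecules, which makes them soluble and marks them for removal. Here 10 mouse genes of the family were followed in kidney, 4 of the alpha class (Gsta1, Gsta2, Gsta3 and Gsta4), 4 of the mu class (Gstm1, Gstm2, Gstm3 and Gstm5), Gstp1 of the pi class and Gstt1 of the theta class. They were chosen by symbol, with earlier results of these data known, and all 10 were found among the 23282 rows of the deposited tables. The libraries came from kidneys of C57BL/6 mice, 5 libraries of Bmal1 -/- animals and 4 of wildtype animals. Bmal1, also named Arntl, is a transcription factor of the circadian clock, and the study asked about the clock in kidney disease. The labels name no hour of sampling, sex, age, deleted part of Bmal1 or cell type of deletion. They do not say that each library is a separate animal, so p-values cover only the library-to-library spread, which may in part be technical.

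The kidney handles such conjugates in steps. A transferase joins glutathione to its substrate, membrane pumps export the conjugate, and enzymes on the surface of proximal tubule cells trim it to a cysteine conjugate. Inside the tubule cell that cysteine conjugate can be acetylated to a mercapturate and passed into urine. Alpha-class enzymes are known for acting on products of lipid peroxidation, and many transferase genes are targets of the stress-response factor NRF2, the product of Nfe2l2.

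RNA was measured by 3′ sequencing, in which a transcript gives about a single tag near its end, so that levels of different genes can be compared without correction for length. Values are on the deposited scale, log2(x + 1), where x is a read count adjusted by the authors towards a common library size, and library totals of x were 11765219 to 13486444. A gene was tested when 4 libraries or more had x of 10 or above, and 13481 symbols passed. Differences are knockout minus wild type on this log2 scale, from limma with Benjamini-Hochberg adjustment over all 13481 symbols and a threshold of 0.05. Arntl itself was lower, with a difference of -0.84 (SE 0.21, limma adjusted p = 0.0112), which does not check the genotype because the deleted part is not known. The ribosomal RNA precursor Rn45s took 5.07% to 14.4% of a library and globin transcripts 0.585% to 3.36%, most of either in knockout 4. Kidney markers were abundant in all 9 libraries, among them Kap of the proximal tubule, with means of 18.44 in knockout and 19.11 in wild type, and Umod of the thick limb, with 13.16 in knockout and 13.63 in wild type.

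Gsta1, Gsta2 and Gstm2 rose in knockout kidney, Gsta3 fell, and 5 other members did not pass the test. Gstm3 was below the filter and was not tested. Thus 3 of 9 tested members were higher, where 6.16% of all tested symbols were called higher, and 1 of 9 was lower, where 8.20% of all were called lower. Because the members were chosen with earlier results of these data known, setting their counts beside these shares is not a test. The same 4 genes were the members whose libraries did not overlap between genotypes, a state found in 14.3% of tested symbols. Near-identical members were also summed, which joins Gsta1 with Gsta2, and Gstm1 with Gstm3, whose coding sequences are 90.1% identical. With these sums 2 of 8 tested members were higher and 1 was lower. Of all called symbols 42.9% were higher as deposited and 50.5% to 64.7% under the 4 other scalings. The median difference over the 9 members was 0.21, against 0.00 over all tested symbols. Gsta1, Gsta2, Gsta3 and Gstm2 kept their call under every alternative in which they had a row, 22 to 24 each, including the fit without wild type 2 and knockout 4, the libraries with most globin in their genotype.

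**Figure D1:**
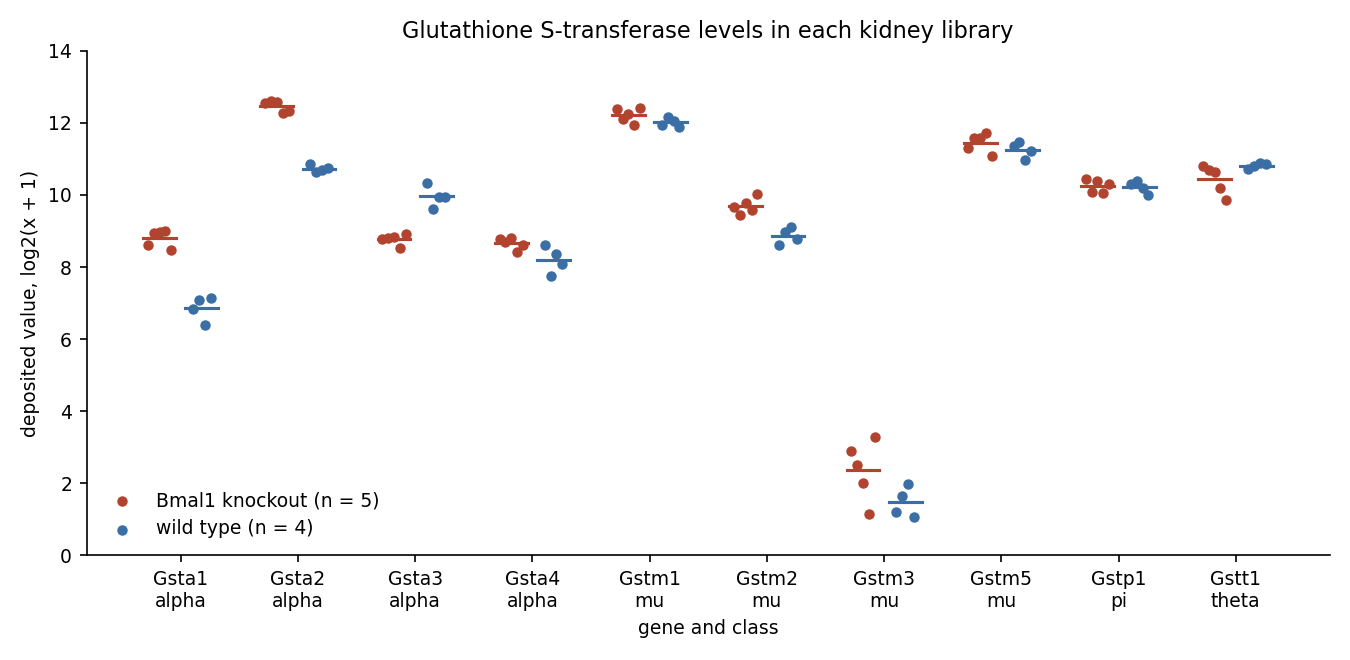
Deposited log2(x + 1) values of the 10 genes in each library, knockout left and wild type right within each gene, with a bar at the mean. Gsta1, Gsta2 and Gstm2 lie higher in all 5 knockout libraries than in any of the 4 wild-type libraries, Gsta3 lies lower, and the other genes overlap.

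Gsta2, an alpha-class enzyme, was the member with the largest gain in abundance. Its values were 12.54, 12.61, 12.57, 12.28 and 12.33 in knockout 1 to 5, against 10.86, 10.63, 10.68 and 10.73 in wild type 1 to 4. Every knockout library lay well above every wild-type library, and the spread was narrow in both genotypes (12.46 ± 0.15, SD, n = 5, and 10.73 ± 0.10, SD, n = 4). The difference was 1.74 (SE 0.10, limma adjusted p = 2.07e-09), and mean x was 3.34 times the wild-type mean. By mean level Gsta2 was the fourth most abundant member in wild type, where it overlapped Gstt1, and in knockout it was the most abundant by its mean, although its libraries there overlapped those of Gstm1.

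Gsta1, its close relative, was much less abundant and rose by a similar amount. Its values were 8.61, 8.94, 8.97, 8.99 and 8.47 in knockout 1 to 5, against 6.83, 7.08, 6.38 and 7.13 in wild type 1 to 4. No library of either genotype reached the range of the other, and the difference was 1.94 (SE 0.17, limma adjusted p = 3.04e-07). Its x was 6.55% to 10.2% of that of Gsta2 in knockout and 5% to 8.44% in wild type, ranges that overlap. The gap between Gsta1 and Gsta2 within a library moved by 0.21 between genotypes (two-sided exact permutation p = 0.325, adjusted over 12 pairs 0.39).

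Both genes lie on chromosome 9 of GRCm38, Gsta1 at 78230656 to 78242684 on the + strand and Gsta2 at 78331018 to 78355788 on the - strand, with no exon of another gene overlapping theirs in GENCODE M21. Their coding sequences are 98.0% identical and the last 300 bases of their transcripts 94.3% identical, so reads may have been split or shared between them. A pair of protein-coding genes known only by number, Gm3776 and Gm10639, lies between them and is as similar: the coding sequence of Gm3776 is 99.7% identical to that of Gsta1, and the coding sequence of Gm10639 is 98.5% identical to that of Gsta2. They were looked up after the values of the members had been seen. Gm3776 averaged 7.59 ± 0.28 in knockout and 5.84 ± 0.36 in wild type (SD, n = 5 and 4), a difference of 1.76 (SE 0.21, limma adjusted p = 1.14e-05). Gm10639 averaged 9.59 ± 0.18 in knockout and 7.87 ± 0.16 in wild type, a difference of 1.71 (SE 0.13, limma adjusted p = 3.71e-08). All 4 near-identical genes were thus higher in knockout by 1.71 to 1.94, and summed to 1 row they differed by 1.75 (SE 0.10, limma adjusted p = 1.36e-09). How much of each change belongs to each gene cannot be told from these values.

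The 250 bases before the start of each called member are shown because Gsta1 and Gsta2 moved together while Gsta3 moved the other way. They come from RefSeq's annotation of GRCm38.p6, which gave a promoter for 9 of the 10 members, all but Gsta4. The windows are chr9:78230419-78230668 on the + strand for Gsta1, chr9:78347146-78347395 on the - strand for Gsta2, chr1:21240335-21240584 on the + strand for Gsta3 and chr3:107986421-107986670 on the - strand for Gstm2. The RefSeq start of Gsta2 lies within the longer GENCODE span given above. Capitals in Gsta1 and Gsta2 mark the longest run of bases that both windows share, and capitals in Gsta3 mark a match to the core of the antioxidant response element, the NRF2 site.
Gsta1: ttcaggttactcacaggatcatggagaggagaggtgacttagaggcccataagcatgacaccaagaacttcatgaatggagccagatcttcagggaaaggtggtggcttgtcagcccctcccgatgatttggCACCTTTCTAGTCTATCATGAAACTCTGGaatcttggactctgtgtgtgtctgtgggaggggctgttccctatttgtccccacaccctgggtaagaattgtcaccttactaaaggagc
Gsta2: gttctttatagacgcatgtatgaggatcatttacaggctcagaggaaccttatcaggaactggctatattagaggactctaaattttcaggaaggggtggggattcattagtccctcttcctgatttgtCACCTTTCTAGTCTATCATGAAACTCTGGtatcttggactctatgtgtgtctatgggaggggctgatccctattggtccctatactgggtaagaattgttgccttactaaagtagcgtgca
Gsta3: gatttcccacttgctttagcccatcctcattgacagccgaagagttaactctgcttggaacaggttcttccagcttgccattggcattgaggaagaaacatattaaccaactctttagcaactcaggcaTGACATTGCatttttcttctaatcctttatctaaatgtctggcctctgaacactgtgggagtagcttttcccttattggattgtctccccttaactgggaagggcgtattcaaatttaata
Gstm2: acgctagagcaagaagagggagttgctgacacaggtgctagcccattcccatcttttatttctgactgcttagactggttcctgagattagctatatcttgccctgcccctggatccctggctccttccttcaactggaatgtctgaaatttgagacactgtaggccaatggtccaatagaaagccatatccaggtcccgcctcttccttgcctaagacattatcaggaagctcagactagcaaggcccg
The shared run is 29 bases long and lies 118 to 90 bases before the start of Gsta1 and 121 to 93 bases before that of Gsta2. Among all promoter windows of this table it was found, on either strand, in 3 genes, Gsta1, Gsta2 and Gm3776. Aligned over their whole length, the Gsta1 and Gsta2 windows were 76.0% identical and the Gsta1 and Gsta3 windows 61.2%. The windows of Gsta1 and the mu-class gene Gstm2 were 62.0% identical, so 61.2% does not set Gsta3 apart as a relative of Gsta1.

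Motifs were searched on both strands of these windows, and none of the motif matches overlapped another. The antioxidant response element core, TGACNNNGC, was found in 10.2% of all 32851 promoter windows of the same length. Among the members it was found in Gsta3, 121 to 113 bases before the start, and in Gstm5, 42 to 34 bases before the start. The E-box CACGTG, the site bound by Bmal1 with Clock, was in 6.02% of all windows and in none of the members. The ROR element, found in 0.177% of all windows, was in none of the members, and the D-box TTATGNAA, found in 3.07%, was in Gstt1 alone. These matches describe letters only, and windows without a match say nothing about sites farther away.

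Gsta3, on chromosome 1 at 21240589 to 21265661 of GRCm38 (+ strand), went the other way. In mouse liver its enzyme is known for detoxifying the epoxide of aflatoxin. Values were 8.77, 8.80, 8.84, 8.54 and 8.92 in knockout 1 to 5, against 10.32, 9.62, 9.93 and 9.95 in wild type 1 to 4. All 5 knockouts lay below all 4 wild types, with a difference of -1.18 (SE 0.13, limma adjusted p = 7.14e-06) and a mean x of 0.435 times that of wild type. Its coding sequence is 78.1% identical to that of Gsta1 and its transcript end 57.0% identical, so it is less open to shared reads than Gsta1, Gsta2, Gm3776 and Gm10639.

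Gsta4, best known for conjugating 4-hydroxynonenal, a toxic product of lipid peroxidation, stands next to Gsta1 on chromosome 9. It had 8.78, 8.69, 8.80, 8.41 and 8.61 in knockout 1 to 5, against 8.60, 7.75, 8.35 and 8.09 in wild type 1 to 4. The genotypes overlapped through wild type 1, and the difference of 0.46 (95% interval 0.13 to 0.79) did not pass the test (limma adjusted p = 0.0568). Without wild type 1 it was 0.60 (limma adjusted p = 0.018) and without knockout 4 it was 0.52 (limma adjusted p = 0.0499), while without wild type 2 it was 0.31 (limma adjusted p = 0.151) and without both wild type 2 and knockout 4 it was 0.38 (limma adjusted p = 0.099). With Rn45s as a covariate it was 0.65 (limma adjusted p = 0.00674), 3 of 4 other scalings also brought it past the threshold, and limma without a mean trend gave an adjusted p of 0.125.

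The alpha-class members changed unequally. The gap within a library between Gsta1 and Gsta3 averaged 0.02 in knockout and -3.10 in wild type, a change of 3.13, and that between Gsta2 and Gsta3 averaged 3.69 in knockout and 0.77 in wild type, a change of 2.92. Gsta2 against Gsta4 changed by 1.28, Gsta1 against Gsta4 by 1.48 and Gsta3 against Gsta4 by -1.65. Each of these 5 changes had an exact permutation p of 0.00794, the smallest that 5 against 4 libraries can give, and 0.0159 after adjustment over the 12 pairs within the alpha and mu classes. For Gsta1 and Gsta2 against Gsta3 this p follows from the separate values, which did not overlap between genotypes and moved in opposite directions. The 5 changes share genes, and Gsta1 and Gsta2 may share reads, so they are not separate results. In wild type the alpha genes ran from Gsta2 through Gsta3 and Gsta4 down to Gsta1 with no overlap between neighbours. In knockout Gsta1, Gsta3 and Gsta4 all lay between 8.41 and 8.99 and overlapped.

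**Figure D2:**
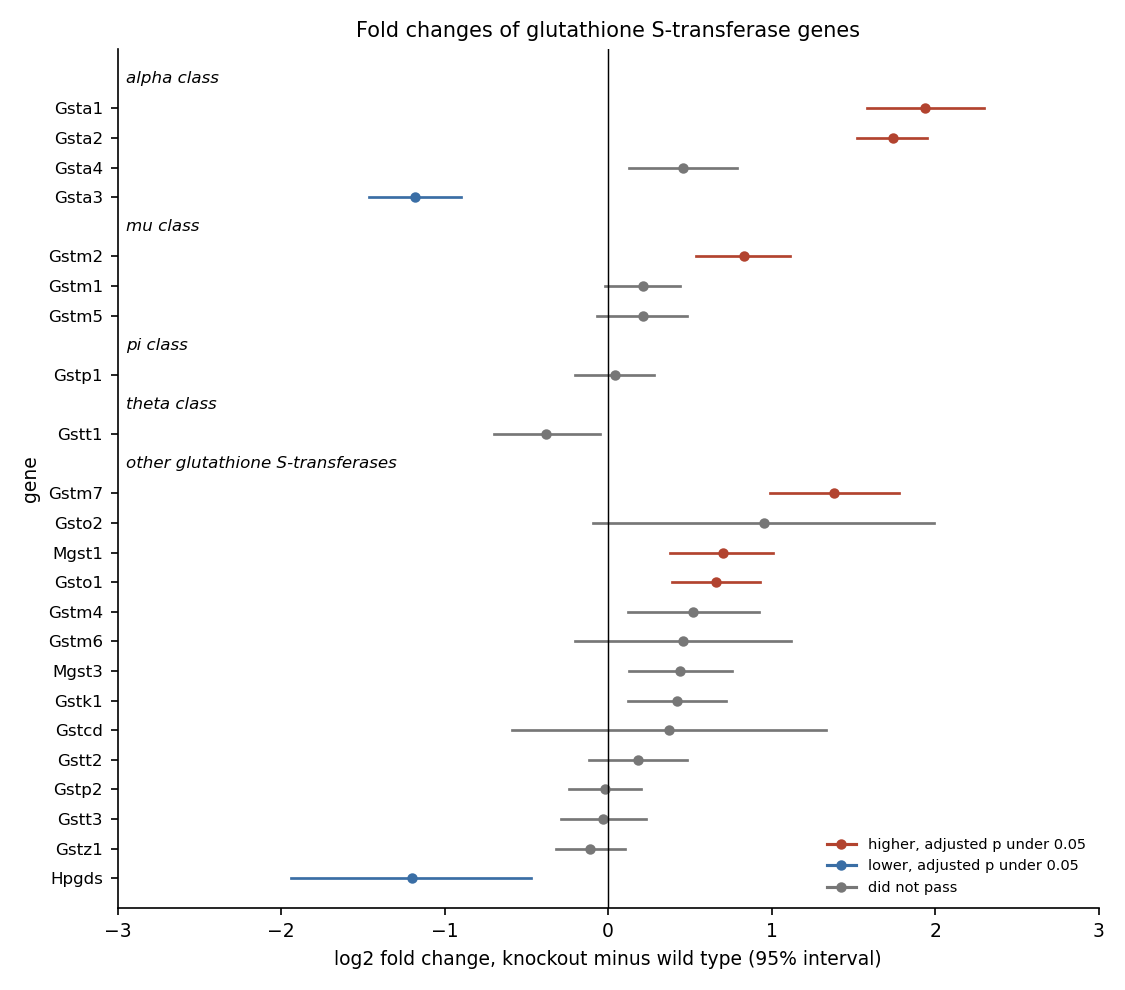
Log2 fold change, knockout minus wild type, with its 95% interval, for the 9 tested members by class and for the other tested transferase genes. Gsta1 and Gsta2 stand at 1.94 and 1.74, Gsta3 at -1.18, and Gstm7 leads the genes outside the 10 members at 1.38.

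Mu-class enzymes are known for conjugating aromatic electrophiles, and their genes form a cluster on chromosome 3 of GRCm38. Gstm2, at 107981702 to 107986453 on the - strand, rose. Its values were 9.66, 9.43, 9.76, 9.57 and 10.03 in knockout 1 to 5, against 8.60, 8.97, 9.10 and 8.78 in wild type 1 to 4. The lowest knockout lay above the highest wild type, and the difference was 0.83 (SE 0.13, limma adjusted p = 0.000368). Its mean x was 1.78 times that of wild type.

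Gstm1, the most abundant member in wild type, and Gstm5 overlapped between genotypes. Gstm1 averaged 12.22 ± 0.19 in knockout (n = 5) and 12.01 ± 0.12 in wild type (SD, n = 4), a difference of 0.21 with a 95% interval of -0.02 to 0.44 (limma adjusted p = 0.235). Of 24 alternatives it passed with quantile normalization alone, at 0.34 (limma adjusted p = 0.0406). Gstm5 averaged 11.45 ± 0.26 in knockout and 11.25 ± 0.22 in wild type, a difference of 0.21 with a 95% interval of -0.07 to 0.48 (limma adjusted p = 0.344). Exons of Gstm5 overlap the antisense transcript 4933431E20Rik, which differed by -0.53 (SE 0.17, limma adjusted p = 0.0487), and since the strand setting is not given the value of Gstm5 is uncertain in that respect. Gstm1 against Gstm2 changed by -0.62 within libraries (exact permutation p = 0.00794, adjusted over 12 pairs 0.0159), whereas Gstm2 against Gstm5 changed by 0.62 (exact permutation p = 0.0714, adjusted 0.122).

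Gstm3 was barely detected. Its x was 6.49, 4.67, 3.02, 1.21 and 8.80 in knockout 1 to 5, against 1.28, 2.14, 2.93 and 1.08 in wild type 1 to 4. The ranges overlapped, and when no filter was applied its difference was 0.90 (SE 0.51, limma adjusted p = 0.329).

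The mu cluster also holds Gstm7, Gstm6 and Gstm4, in the order Gstm5, Gstm7, Gstm6, Gstm3, Gstm2, Gstm1 and Gstm4 along the chromosome. Gstm7 averaged 8.55 ± 0.25 in knockout and 7.16 ± 0.43 in wild type (SD, n = 5 and 4), a difference of 1.38 (SE 0.19, limma adjusted p = 5.87e-05). Gstm6 and Gstm4, named after their values were seen, had differences of 0.46 (limma adjusted p = 0.374) and 0.52 (limma adjusted p = 0.0757). The called genes Gstm7 and Gstm2 are not neighbours, with Gstm6 and Gstm3 between them. The last 300 bases of the mu transcripts in this cluster were 47.7% to 65.7% identical between genes.

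**Figure D3:**
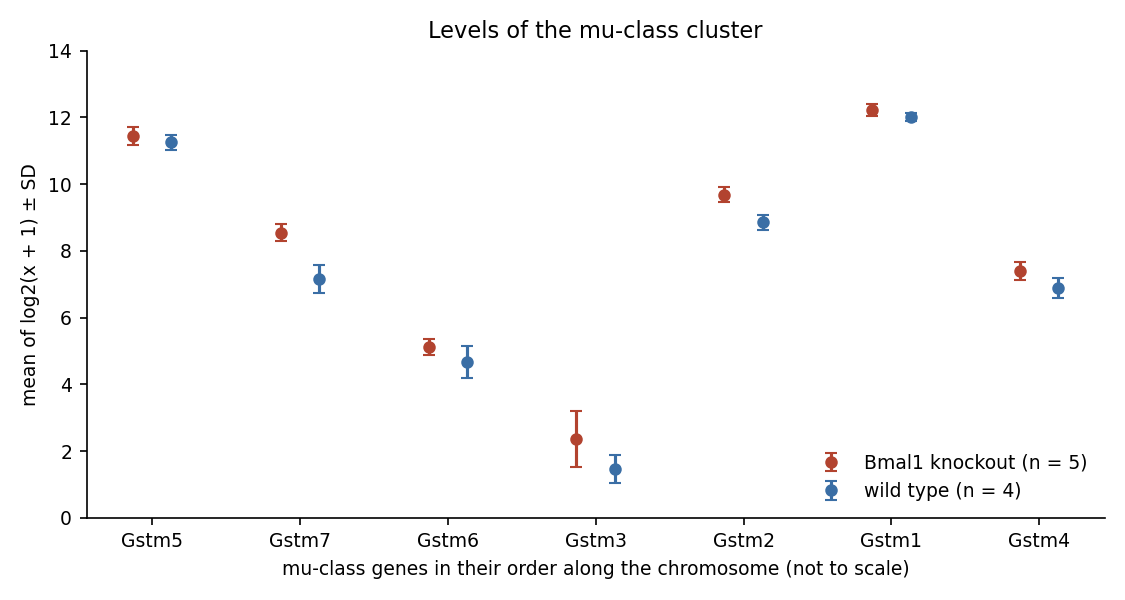
Mean of log2(x + 1) with SD for the 7 mu-class genes in their order along chromosome 3, 5 knockout libraries beside 4 wild-type libraries. Gstm7 and Gstm2 stand apart between genotypes, while the abundant Gstm5 and Gstm1 do not pass the test.

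Gstp1, the pi-class enzyme, known also as a partner of the stress kinase JNK, averaged 10.26 ± 0.17 in knockout (n = 5) and 10.22 ± 0.17 in wild type (SD, n = 4). The difference was 0.04 with a 95% interval of -0.20 to 0.28 (limma adjusted p = 0.874), and its sign turned to -0.01 without knockout 1 and to -0.04 without wild type 4. Its neighbour on chromosome 19, Gstp2, has a coding sequence 98.1% identical and an identical transcript end over 300 bases. The deposited values of these 2 genes differed by only 0.007 to 0.083 in any library, so the same reads may stand behind both.

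Gstt1, the theta-class enzyme known for acting on small halogenated solvents, lies on chromosome 10. It had 10.80, 10.70, 10.63, 10.19 and 9.87 in knockout 1 to 5, against 10.72, 10.80, 10.88 and 10.85 in wild type 1 to 4. Wild types were tightly grouped while knockouts spread downwards from the wild-type range, with an SD of 0.40 in knockout against 0.07 in wild type. The difference of -0.38 (95% interval -0.70 to -0.05) did not pass (limma adjusted p = 0.118). Without knockout 1, the highest of its genotype, it was -0.47 (limma adjusted p = 0.0474), and without knockout 5 it was -0.23 (limma adjusted p = 0.259). The other theta genes, Gstt2 and Gstt3, had differences of 0.18 (limma adjusted p = 0.451) and -0.03 (limma adjusted p = 0.918).

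Summed over the 10 members, transferase RNA took 0.147% ± 0.012 of the library in knockout (SD, n = 5) and 0.103% ± 0.00285 in wild type (SD, n = 4). The lowest knockout, at 0.128%, lay above the highest wild type, at 0.107%. The alpha class made up 38.4% ± 1.54 of this sum in knockout and 23.7% ± 2.93 in wild type, and Gsta2 alone made up 31.3% ± 1.48 in knockout and 12.9% ± 0.974 in wild type. Mu genes made up 47% ± 2.5 of the sum in knockout and 53.5% ± 2.6 in wild type, and theta 7.81% ± 1.59 in knockout and 13.7% ± 1.14 in wild type. As a share of the library the mu sum was nevertheless higher, at 0.0626% to 0.0734% in knockout and 0.0525% to 0.0583% in wild type. Theta took 0.00792% to 0.0147% of the library in knockout and 0.0132% to 0.0152% in wild type, ranges that overlap. These sums follow from the members' own values and were not tested.

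**Figure D4:**
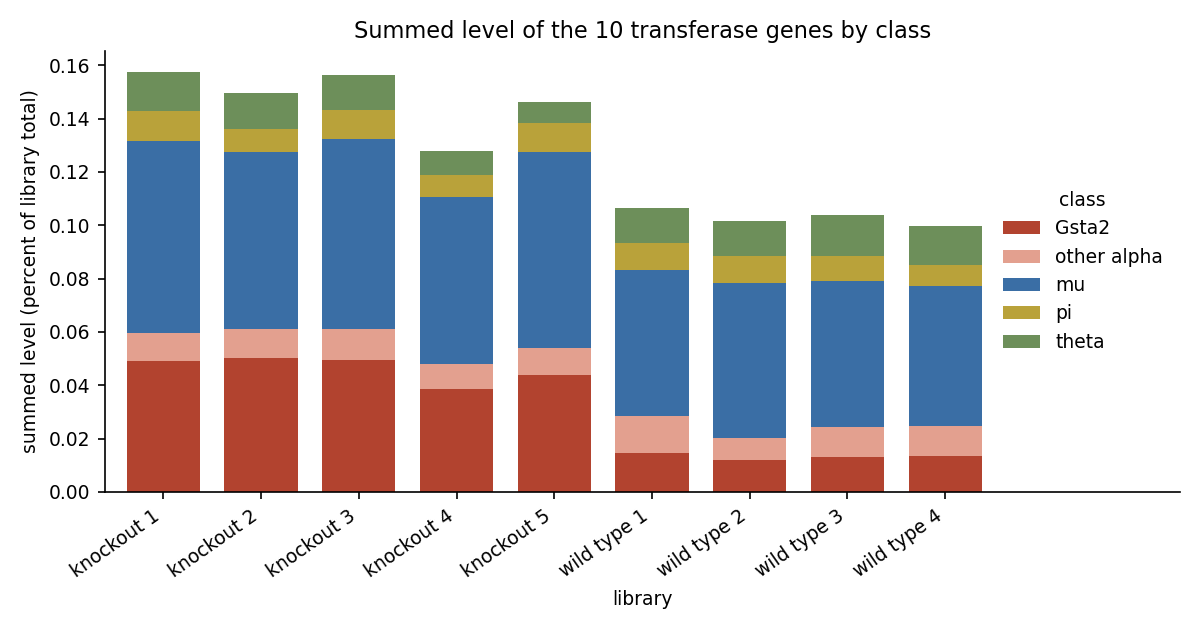
Summed level of the 10 members in each library as percent of the library total, stacked by class, with Gsta2 set apart from the other alpha genes. The 5 knockout libraries reach 0.128% to 0.158%, the 4 wild-type libraries 0.0999% to 0.107%, and the Gsta2 part is the one that grows most.

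Transferases outside the 10 members moved both ways. Of 21 listed, 16 were in the files and 14 were tested, of which 3 were higher, 1 was lower and 10 did not pass, with a median difference of 0.43. Over all tested symbols 6.16% were called higher and 8.20% lower. Besides Gstm7, Gsto1, which reduces dehydroascorbate, averaged 9.21 ± 0.16 in knockout and 8.55 ± 0.22 in wild type (SD, n = 5 and 4), a difference of 0.66 (SE 0.13, limma adjusted p = 0.00199). The membrane enzyme Mgst1, named after its value was seen, had a difference of 0.70 (SE 0.15, limma adjusted p = 0.00353). Hpgds, the transferase-like prostaglandin D synthase, had a difference of -1.20 (SE 0.35, limma adjusted p = 0.0274). It stayed between -1.45 and -1.05 with any single library left out, but the call was lost without knockout 1, 2, 3 or 5 (limma adjusted p of 0.0538, 0.0547, 0.0541 and 0.0544) and without wild type 1, 2 or 4 (0.0702, 0.0668 and 0.0628). It was also lost with no filter (limma adjusted p = 0.0572) and with the replicate block (0.061). Gstz1, the most abundant of these genes and an enzyme of tyrosine breakdown, had a difference of -0.11 (limma adjusted p = 0.512), and its exons overlap Pomt2 on the other strand. The count of higher genes in this list was 5 to 6 under the 4 other scalings, 5 without knockout 5 and 6 without wild type 1.

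Around the transferases, genes of the wider glutathione pathway were more often lower than higher. The 5 lists joined hold the other transferases above, genes that make, trim, use or dispose of glutathione, and regulators of transferase genes. These lists too were drawn up with earlier results of these data known. With the members left out, 66 genes were tested, 18 were lower and 7 higher, with a median difference of -0.07. Of these the other transferases gave 1 lower and 3 higher, and the regulators 2 lower and 2 higher. Over all tested symbols 8.20% were lower and 6.16% higher. Summed levels of proximal tubule markers moved in the same direction, as given further on, and their part in these decreases was not tested.

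Among 13 tested genes of glutathione synthesis and breakdown, 6 were lower and 1 higher, with a median of -0.24. The shares over all tested symbols were 8.20% lower and 6.16% higher. Ggt1, the γ-glutamyltransferase that starts the trimming of conjugates on the tubule surface, averaged 12.30 ± 0.12 in knockout and 13.18 ± 0.13 in wild type (SD, n = 5 and 4), a difference of -0.89 (SE 0.10, limma adjusted p = 1.08e-05). Gclm, the modifier subunit of the first enzyme of glutathione synthesis and an NRF2 target, had a difference of -0.62 (SE 0.10, limma adjusted p = 0.000222). Its catalytic partner Gclc, named after its value was seen, had -0.01 with a 95% interval of -0.33 to 0.30 (limma adjusted p = 0.963). Ggt5, a second glutamyltransferase, was the gene that rose, by 0.95 (SE 0.28, limma adjusted p = 0.0280). Without knockout 2, knockout 4 or wild type 4 its difference was 0.91, 0.84 and 0.90 but the limma adjusted p was 0.0638, 0.0744 and 0.0707. The Ggt5 call was also lost with quantile normalization (0.78, limma adjusted p = 0.0665), no filter (0.95, 0.0605), Rn45s as a covariate (0.97, 0.0559), the replicate block (0.97, 0.0668) and without wild type 2 and knockout 4 (0.75, 0.0998).

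Conjugate export and mercapturate formation had the lowest median of the 5 lists. Of its 10 tested genes 6 were lower and 1 higher, with a median of -0.63, beside 8.20% lower and 6.16% higher over all tested symbols. The summed level of the list was 0.182% to 0.222% of the library in knockout against 0.455% to 0.561% in wild type. Most of that sum was Acy3, with a mean x of 15620 in knockout and 46500 in wild type. This enzyme acts on mercapturates already formed, as given below, so the sum is not a measure of their formation. The sum of x over the list was 21720 to 26810 in knockout and 57350 to 71400 in wild type. Cndp2, a dipeptidase that splits cysteinylglycine, averaged 10.51 ± 0.20 in knockout and 12.46 ± 0.20 in wild type (SD, n = 5 and 4), a difference of -1.95 (SE 0.12, limma adjusted p = 3.71e-09). Acy3, which removes the acetyl group from mercapturates, averaged 13.93 ± 0.14 in knockout and 15.50 ± 0.19 in wild type, a difference of -1.57 (SE 0.13, limma adjusted p = 9.73e-08). The other 4 that fell were named after their values were seen. They were the β-lyase Ccbl1 (-1.32), the acetyltransferase gene Nat8 (-1.14), whose human counterpart acetylates cysteine conjugates, the apical export pump gene Abcc2 (-0.79) and the aminoacylase Acy1 (-0.47). Abcc1, an export pump of the basolateral side, rose by 0.74 (SE 0.20, limma adjusted p = 0.0205), with 0.64 (limma adjusted p = 0.0531) without knockout 1 and 0.71 (0.0505) without knockout 3.

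**Figure D5:**
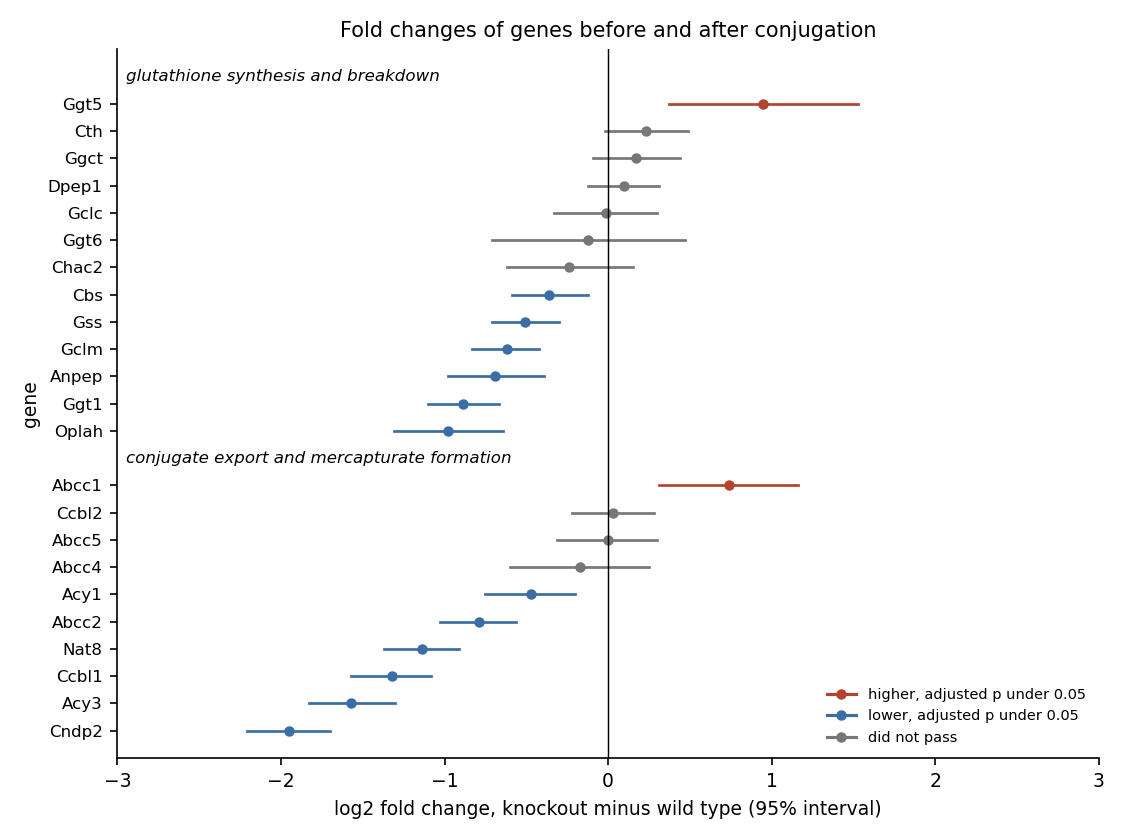
Log2 fold change, knockout minus wild type, with its 95% interval, for tested genes of glutathione synthesis and breakdown and of conjugate export and mercapturate formation. Cndp2, Acy3 and Ccbl1 lie lowest, at -1.95, -1.57 and -1.32, and Ggt5 and Abcc1 are the genes called higher.

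Of 14 tested genes that use glutathione to reduce peroxides, thiols or aldehydes, 3 were lower and none higher, with a median of -0.08. The shares over all tested symbols were 8.20% lower and 6.16% higher. Prdx6, a peroxidase that works with a pi-class transferase, had a difference of -0.44 (SE 0.10, limma adjusted p = 0.00526), and Glrx, glutaredoxin, -0.60 (SE 0.14, limma adjusted p = 0.00615). Gpx3, the peroxidase that the kidney secretes into plasma and the most abundant gene of the list, averaged 18.05 ± 0.17 in knockout and 18.13 ± 0.15 in wild type (SD, n = 5 and 4; limma adjusted p = 0.840).

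Of 15 tested regulators of transferase genes 2 were higher and 2 lower, with a median of -0.07. Over all tested symbols 6.16% were called higher and 8.20% lower. Without wild type 2 the count of lower regulators was 4. Nr1i2, the xenobiotic receptor PXR, had a difference of 0.85 (SE 0.21, limma adjusted p = 0.0126) and Nfe2l1, a relative of NRF2, 0.48 (SE 0.11, limma adjusted p = 0.00799). Mafg, a partner of NRF2 on DNA, had -0.43 (SE 0.10, limma adjusted p = 0.00843). Nfe2l2 itself, named after its value was seen, had 0.21 with a 95% interval of -0.02 to 0.43 (limma adjusted p = 0.234). Hnf4a, the most abundant of the list, had -0.31 (limma adjusted p = 0.0550), and passed without knockout 1 (limma adjusted p = 0.0446), without wild type 2 (0.0275) or with x of at least 50 as the filter (0.0488).

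Markers of cell makeup moved with genotype as well. Beside the counts that follow, 6.16% of all tested symbols were called higher and 8.20% lower. Of 19 proximal tubule markers, a list that also holds Ggt1 and Hnf4a and shares Kap and Slc7a13 with the genes higher in male kidney, 8 were lower and none higher, and their summed level was 4.42% to 4.78% of the library in knockout against 6.23% to 7.24% in wild type. Kap alone made up 2.83% to 3.08% of the library in knockout and 3.72% to 5.15% in wild type, and was itself not called (-0.67, SE 0.23, limma adjusted p = 0.0604). With Kap left out, a choice made after seeing the data, the sum was 1.52% to 1.96% in knockout and 2.09% to 2.52% in wild type. In whole kidney RNA fewer cells of a type and less RNA per cell cannot be told apart. Of 9 thick limb and distal markers 5 were called higher and none lower, with sums of 0.291% to 0.406% in knockout and 0.213% to 0.404% in wild type. Umod, the most abundant of them, had a difference in the other direction that did not pass (-0.47, SE 0.17, limma adjusted p = 0.067). Of 9 collecting duct markers 4 were higher and none lower, with 0.0483% to 0.0688% in knockout and 0.0339% to 0.0406% in wild type. Of 7 tested urothelial markers 6 were higher, with 0.00754% to 0.0154% in knockout and 0.00397% to 0.00488% in wild type. Endothelial markers were higher in 4 of 8, fibroblast and smooth muscle markers in 2 of 9, and macrophage markers in none of 8, with 1 lower. Of 8 hepatocyte markers 3 were higher and 2 lower, with sums of 0.0673% to 0.111% in knockout and 0.127% to 0.159% in wild type. Most of the wild-type sum was Cyp2e1, which is also listed among the genes higher in male kidney. Its mean x was 4039 in knockout and 10940 in wild type, a difference of -1.46 (SE 0.13, limma adjusted p = 3.62e-07). None of 2 tested adipocyte markers was called, with sums of 0.0133% to 0.0843% in knockout and 0.00966% to 0.0192% in wild type. None of 6 red blood cell markers was called, with sums of 0.85% to 3.37% in knockout and 0.586% to 1.46% in wild type. None of these markers was at 0 in all libraries.

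Several of these counts turned on single libraries or settings. Without wild type 1 the higher markers numbered 3 for thick limb and distal, 2 for collecting duct and 2 for endothelium. The thick limb and distal count was also 3 without knockout 4 or wild type 4, and 1 for limma without a mean trend. In that list 1 marker was lower without wild type 1, without wild type 2, and without both wild type 2 and knockout 4. Without wild type 2, 1 collecting duct marker was lower too. Fibroblast and smooth muscle markers called higher numbered 4 without knockout 1 and 6 when scaling left out Rn45s. Red blood cell markers called higher numbered 6 without wild type 2 and 2 without knockout 1. The adipocyte count was 1 without knockout 1.

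Genes with a known sex bias in mouse kidney moved too. Of 10 genes higher in male kidney 9 were lower in knockout and none higher, with sums of 3.02% to 3.31% in knockout and 4.56% to 5.86% in wild type. Most of that sum was Kap, the gene of the list without a call, and the other 9 summed to 0.187% to 0.303% in knockout and 0.708% to 0.917% in wild type. All 5 genes higher in female kidney were higher in knockout, with sums of 0.0776% to 0.118% in knockout and 0.0137% to 0.0189% in wild type. These lists were drawn up with earlier results of the same libraries known. Whether tubule makeup or the sex-biased program had a part in the changes of Gsta1, Gsta2, Gsta3 and Gstm2 was not tested.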

How the data were processed

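Mouse kidney RNA, in 5 libraries of Bmal1 knockout and 4 of wild type, was profiled with the Lexogen QuantSeq 3′ kit, per the labels' protocols. Each library has its own deposited table of log2 values, log2(x + 1), x being an adjusted read count; Bowtie2, bedtools and build mm10 are named in the submitters' processing notes. The normalization tool, annotation, strand setting, handling of shared reads and raw depth are unknown.

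All rows were read, 79 of which carry a repeated symbol. The test was limma 3.58.1 (R 4.3.3) on the deposited log2 values (genotype as the single term, prior variance following the mean, two-sided), after tests on simulated data. Gaps between members of a class were tested with a two-sided exact permutation test of the genotype labels. Positions came from GENCODE M21, promoters from RefSeq, both GRCm38, the assembly of mm10; identities were computed with Biopython 1.88.

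Members and lists were chosen with earlier results of these data known. Named genes are the 10 members and, per pathway list, up to 2 called genes in each direction by adjusted p and the most abundant; others are marked, and 1 gene that the rule names is not reported here. Alternatives were 4 other scalings, a pseudocount of 5, no filter or x of at least 50, limma settings, Rn45s as a covariate, a replicate block, single libraries or wild type 2 and knockout 4 left out, and near-identical members summed. That sum used coding-sequence identity of 90% or more in place of protein identity.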

Additional observations from a re-analysis of the deposited data

Results flagged for a closer look

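Of 66 sets of 4 or 5 libraries of a genotype examined for a library standing apart from the rest, 2 held such a value by Dixon's criterion, where chance alone gives about 1 in 20. Hpgds was 5.32 in knockout 4, against 3.85 to 4.21 in the other 4 knockouts, a value inside the wild-type range of 5.06 to 5.97. Gstz1 was 11.59 in knockout 5, against 11.84 to 11.88 in the other knockouts. None of the 10 members had a library that stood apart in this way.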

How the results depend on the processing

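Gsta1, Gsta2, Gsta3 and Gstm2 kept direction and call under every alternative run on them. Higher members numbered 3 as reported, 5 with quantile normalization, where Gsta4 and Gstm1 joined, and 3 to 4 on leaving out single libraries. They numbered 2 with near-identical members summed, which joins Gsta1 and Gsta2 in 1 row and Gstm1 and Gstm3 in another. Lower members numbered 1 to 2 on leaving out single libraries, with 2 without knockout 1. The cause was not tested. Of the 12 within-class pairs, 6 passed, 0 to 6 on leaving out single libraries and 0 without wild type 2 and knockout 4: with 4 or fewer libraries in both genotypes the smallest adjusted p was 0.0571, so this says nothing about stability. Signs turned for uncalled values only: Gstp1 ranged from -0.04 to 0.10 and the Gstm1 to Gstm5 gap from -0.13 to 0.14 on leaving out single libraries; Gstz1 was 0.03 with quantile normalization and Gpx3 0.02 when Rn45s was left out of the totals used for scaling. The Gstm2 to Gstm3 gap was 0.20 with quantile normalization, 0.35 with a pseudocount of 5 and -0.35 to 0.07 on leaving out single libraries. With the replicate number as a block 3 members were higher, 1 was lower and 1739 symbols were called. Same-numbered libraries deviated together at correlations of -0.01 to 0.15. So few low values show no clear pairing by number but cannot exclude it. Scaling to totals that leave out Rn45s moved the median of all symbols by 0.105. Called symbols numbered 1937, with 1416 to 2264 on leaving out single libraries. Sums of near-identical genes, with Gm3776 and Gm10639 or of Gstp1 with Gstp2, were added after the data were seen.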
